A study of Mus musculus with 6 samples.

Results

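The genes described here handle retinoids, the vitamin A family, in the cornea: *Cyp26b1*, *Cyp26a1*, *Crabp1*, *Crabp2*, *Lrat*, *Rbp4*, *Stra6*, *Dhrs3* and *Rdh10*. These 9 genes were chosen by their roles in binding, storing and clearing retinoids, with their fold changes and counts in the present comparison already known, so their own differences between the genotypes are given as a description, with no p-value, and the few calls named for them are not read as tests. Of the 9 genes, 8 have a row among the 17554 genes of the deposited table, and *Rbp4* was not analysed here. The samples are RNA of the corneal epithelial layer of mice, 3 control and 3 mutant samples, all 2 months old and profiled by bulk RNA-seq. The control samples are labelled WT. The mutant samples are labelled Rela-/- and are, by the study's methods, from *Krt14-Cre; Rela f/f* mice, which lose the floxed part of *Rela* (the RelA subunit of NF-κB) in cells that use the keratin 14 promoter. That promoter is also active in the limbus, the conjunctiva, the meibomian glands and the skin, so the deletion is not limited to the cornea. All samples carry the strain label C57BL/6.

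Retinol reaches cells on the carrier RBP4 and enters them through the receptor STRA6. LRAT turns it into esters for storage, RDH10 oxidizes it to retinal, and DHRS3 reduces retinal back to retinol. ALDH1A enzymes oxidize retinal to retinoic acid, which activates nuclear receptors, and enzymes of the CYP26 family oxidize retinoic acid for removal. CRABP1 and CRABP2 bind retinoic acid inside the cell, and CRABP2 delivers it to its receptors. Lack of vitamin A makes the corneal epithelium dry and keratinized, so the tissue is a classic site of retinoid action.

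The total of expected counts ranged from 19492942 to 19733834 per sample, so depth was alike in both groups. *Rela*, the targeted gene, had an FPKM (a level scaled by transcript length and by the sample's total) of 33.4 to 36.5 in controls against 4.93 to 5.72 in mutants, lower in each sample labelled as mutant. The corneal keratin *Krt12* lay between 17005 and 21194 FPKM in all 6 samples, and of the 10 corneal markers 2 rose (*Krt14*, whose promoter drives the Cre, from 150 to 203 FPKM to 1474 to 2204 FPKM, and *Clu*) and 1 fell (*Aldh3a1*). The goblet cell mucins *Muc5ac* and *Muc5b* were at or under 0.01 FPKM. Mutant replicate 1 stood apart from the other mutant samples on the second principal component (24.2 against -9.53 and -20.7), and values without it are given beside the largest differences. Genes were tested with edgeR's quasi-likelihood test over 12667 genes that passed its filter on low counts. The stricter call needed an adjusted p no higher than 0.001 together with a fold change no smaller than 2, and 173 genes (1.37%) passed both thresholds. These thresholds are the ones named in the methods of the study. At an adjusted p under 0.05 without a fold threshold, 1678 genes (13.2%) were called. Of the 8 genes with a row, *Cyp26b1*, *Crabp2*, *Dhrs3* and *Rdh10* passed the filter on low counts, and *Cyp26a1*, *Crabp1*, *Stra6* and *Lrat* did not. *Crabp2* passed it only with its mutant samples, since its expected counts in controls were 19, 13 and 6. *Cyp26b1* alone was past both thresholds, and *Cyp26b1* and *Crabp2* were under 0.05. Since the genes were chosen with this comparison known, nothing is read from these counts.

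*Cyp26b1*, which encodes an enzyme that oxidizes retinoic acid, was among the more abundant messages of the control epithelium and was several times lower in the mutant epithelium. The gene (identifier 232174) lies on the minus strand of chromosome 6 of GRCm38, at chr6:84571414-84593908. Its expected counts were 4420, 6912 and 7642 in controls against 1288, 2124 and 1976 in mutants. These correspond to 46.7, 73.3 and 81.4 FPKM in controls against 13.6, 22.6 and 20.8 FPKM in mutants. The lowest control sample was thus above the highest mutant sample, and the groups did not overlap. The mean was 67.1 ± 18.2 FPKM (SD, n = 3) in the control and 18.99 ± 4.77 FPKM (SD, n = 3) in mutants. The log2 fold change, mutant minus control, was -1.83 (standard error 0.23, 95% interval -2.34 to -1.32), a 3.55-fold lower level. In bulk samples, fewer cells that use a gene and less of its RNA per cell cannot be told apart. Ranked by FPKM within a sample, *Cyp26b1* stood at percentile 92.0 to 95.9 of all genes in controls against at 73.7 to 82.9 in mutants. The log2 fold change was -1.64 without mutant replicate 1, the sample with the lowest *Cyp26b1*, and -2.04 without control replicate 1, the control sample with the lowest. Without each of the other samples it was -1.77 (control replicate 2), -1.65 (control replicate 3), -1.98 (mutant replicate 2) and -1.88 (mutant replicate 3).

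**Figure D1:**
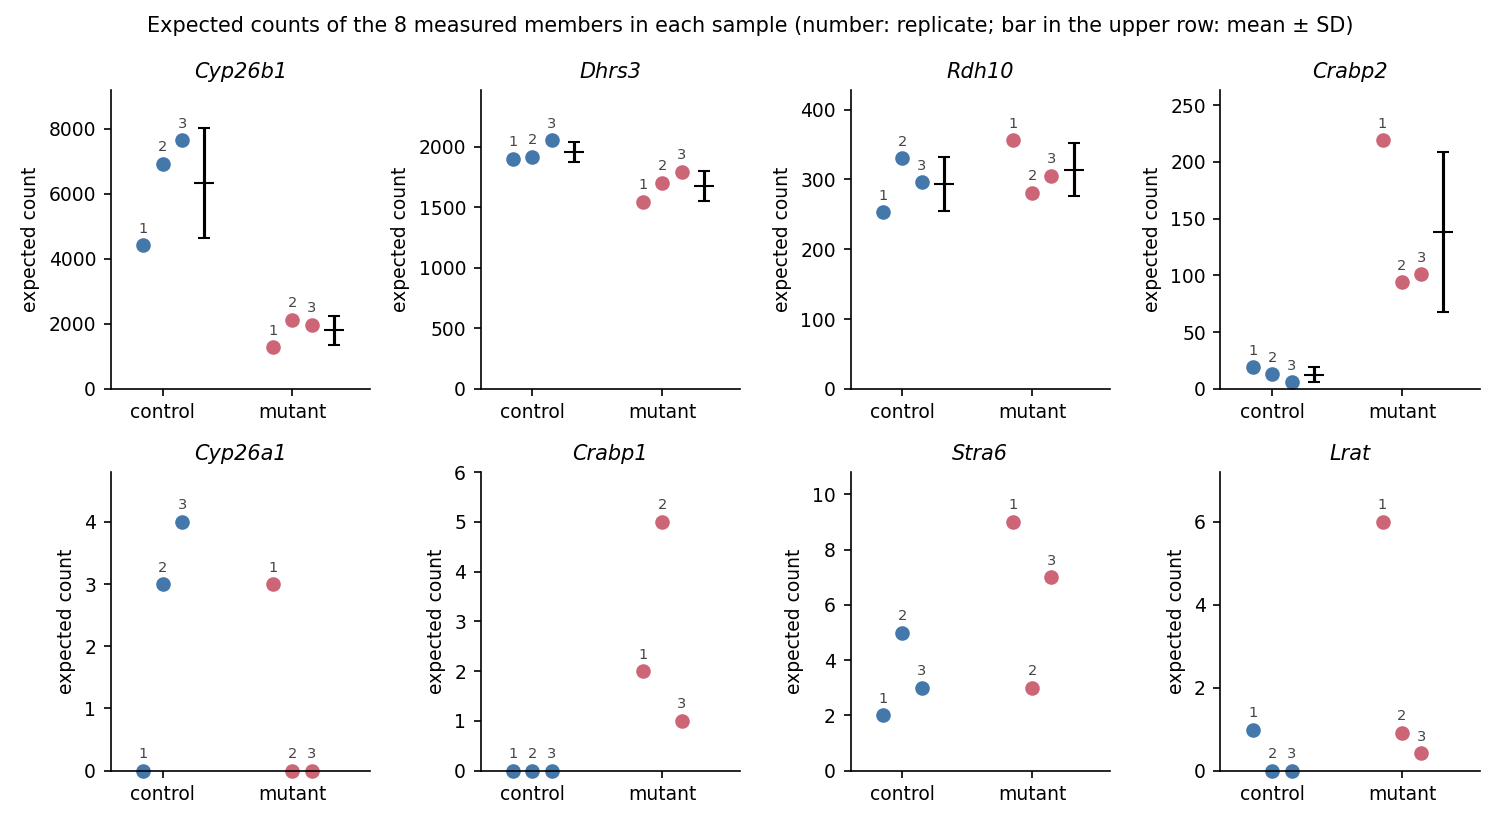
Expected counts (vertical axes, each starting at 0) of the 8 genes with a row, in each control (blue) and mutant (red) sample, numbered by replicate, with mean ± SD bars in the upper row. *Cyp26b1* lies at 4420 to 7642 counts in controls and 1288 to 2124 in mutants, *Crabp2* at 6 to 19 and 94 to 219, and the lower row holds genes with at most 9 counts in any sample.

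*Cyp26b1* also varied between samples of the same genotype. Its coefficient of variation in FPKM was 27.1% among the control and 25.1% among the mutant samples, against medians of 8.06% and 9.97% over the genes tested. This placed it at percentile 92.1 of the tested genes in controls and 88.4 in mutants. *Crabp2* varied more, by 51.0% and 51.3%, and *Dhrs3* less, by 5.37% and 7.0%.

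The start of *Cyp26b1* is printed because the deleted gene encodes an NF-κB subunit and this is the member with the most counts. In the RefSeq window of 250 bases before to 50 bases after the annotated start (GRCm38.p6), a match to the kappa B consensus began 206 bases before the start and a TATAAA box 139 bases before it. The stretch from 250 to 101 bases before the start, chr6:84593911-84594060 on the minus strand, is shown with both matches in capitals. The gene's span in the deposited table begins at 84593908 on that strand, further upstream than the RefSeq start. Both distances are shorter when counted from there. The kappa B consensus, searched on both strands, had a match in 4.51% of 32851 windows of this kind, and TATAAA, searched on the coding strand, in 8.32%. A match in a sequence is not evidence of binding.
Cyp26b1: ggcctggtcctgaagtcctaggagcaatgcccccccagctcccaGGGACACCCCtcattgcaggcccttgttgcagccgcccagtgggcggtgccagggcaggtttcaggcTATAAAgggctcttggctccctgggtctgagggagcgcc

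*Cyp26a1*, the related enzyme that many tissues induce in response to retinoic acid, was close to absent. Its expected counts were 0, 3 and 4 in controls against 3, 0 and 0 in mutants. The groups overlapped, and a difference was not detectable at this depth, where 3 counts equal 0.152 to 0.154 CPM. *Cyp26c1*, the remaining enzyme of the family, reached at most 0.07 FPKM. The CYP26 message in both genotypes was therefore almost wholly that of *Cyp26b1*. The gene (13082) lies at chr19:37697732-37701536 of GRCm38.

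Retinoic acid receptors bind repeats of the 6-base element AGGTCA or AGTTCA, and the window of *Cyp26a1* is shown because it was the only one among the members' windows with such a repeat. The repeat, with 5 bases between its copies and read here on the opposite strand, began 32 bases before the RefSeq start, and repeats of that spacing had a match on either strand in 0.0396% of the 32851 windows. The 30 bases around it, chr19:37697770-37697799 on the plus strand, are printed with the whole repeat in capitals, and they lie inside the gene's longer span in the deposited table. Repeats with 2 bases between the copies, with the same background of 0.0396%, were found in none of the 11 windows of the 6 members in the table (*Lrat*, *Dhrs3*, *Cyp26b1*, *Crabp1*, *Stra6* and *Cyp26a1*), and the single element, which each repeat also contains, is in 27.7% of all windows. The absence of these letters from the window of *Cyp26b1* says nothing of more distant sequence.
Cyp26a1: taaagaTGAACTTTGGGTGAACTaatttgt

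*Dhrs3*, which returns retinal to retinol and so lowers the supply for retinoic acid, was abundant in all samples and varied little within each group. Its FPKM was 59.8, 59.8 and 65.6 in controls against 49.1, 54.9 and 56.2 in mutants. The highest mutant sample was below the lowest control sample, and the distance was small. The log2 fold change was -0.23 (standard error 0.080, 95% interval -0.41 to -0.05). The interval is that of a single gene, without adjustment for the number of genes tested. FPKM ranges did not overlap between the groups for *Cyp26b1*, *Crabp2* and *Dhrs3*, 3 of the 4 members tested, beside 32.6% of all genes tested, and nothing is read from that count. The gene (20148) lies at chr4:144892608-144927645.

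The order of the most abundant members differed between the genotypes. *Cyp26b1* led *Dhrs3* in control replicates 2 and 3 and trailed it in control replicate 1, while *Dhrs3* led in each mutant sample. The ratio of *Cyp26b1* to *Dhrs3* FPKM was 0.781, 1.23 and 1.24 in controls against 0.277, 0.412 and 0.370 in mutants. Their levels thus did not differ beyond the spread in control samples and did in mutant samples. *Cyp26b1* made up 41.2% to 52.8% of the summed FPKM of the 8 genes in controls against 16.2% to 25.2% in mutants, and that sum was 113 to 154 FPKM and 83.9 to 89.7 FPKM.

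*Rdh10*, which oxidizes retinol to retinal in the step opposite to that of *Dhrs3*, was at an intermediate level in both genotypes. Its FPKM was 5.60, 7.38 and 6.60 in controls against 7.95, 6.26 and 6.73 in mutants. The groups overlapped over most of their range. The log2 fold change was 0.09 (standard error 0.13, 95% interval -0.21 to 0.39), so a change beyond 0.39 on the log2 scale in either direction lies outside that interval. Its sign turned without control replicate 1 (-0.01) and without mutant replicate 1 (-0.02). The gene (98711) lies at chr1:16105882-16134116.

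*Crabp2*, the binding protein that hands retinoic acid to its receptors, was scarce in control epithelium and about 10 times higher in mutant epithelium. Its expected counts were 19, 13 and 6 in controls against 219, 94 and 101 in mutants. In FPKM these were 1.10, 0.76 and 0.35 in controls against 12.8, 5.48 and 5.83 in mutants. Each mutant sample was above each control sample, and mutant replicate 1 was more than 2 times as high as the other mutant samples. The log2 fold change was 3.43 (standard error 0.45, 95% interval 2.43 to 4.43), or 10.8-fold, and it was 2.92 without mutant replicate 1. The gene (12904) lies at chr3:87948693-87953372, and no window of 50 bases in its transcripts is shared with another gene.

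With this difference *Crabp2* changed its place in the order of levels. It was below *Rdh10* in each control sample, at 0.053 to 0.196 of its FPKM. In the mutant samples the ratio of *Crabp2* to *Rdh10* was 1.61, 0.875 and 0.866, so *Crabp2* was above *Rdh10* in mutant replicate 1 and just below it in the others. In the ranking of all genes within a sample, *Crabp2* moved from percentile 32.5 to 39.1 in control samples to 56.3 to 72.5 in mutant samples.

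*Crabp1*, the paralog that in other cells holds retinoic acid in the cytoplasm, had 0 counts in each control sample and 2, 5 and 1 counts in mutants. All 3 mutant samples had a count and no control sample did, but a library with 0 counts allows up to 3. No fold change is given at these counts. *Crabp2* was thus the main form of the pair in both genotypes. The gene (12903) lies at chr9:54764748-54773110.

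The members for uptake and storage, *Stra6* and *Lrat*, were near the limit of detection. Of the other genes of these roles with a row, 5 of 10 carrier and uptake genes and 5 of 6 storage and release genes passed the filter on low counts. *Stra6*, the receptor through which cells take up retinol from its carrier, had 2, 5 and 3 counts in controls against 9, 3 and 7 in mutants. *Lrat*, which esterifies retinol for storage, had 0.99, 0 and 0 expected counts in controls against 6, 0.92 and 0.42 in mutants. The highest values of both were in mutant replicate 1, and the groups overlapped for both. At this depth no difference was detectable for either gene. *Stra6* (20897) lies at chr9:58063793-58154004 and *Lrat* (79235) at chr3:82892582-82903974 on the minus strand.

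**Figure D2:**
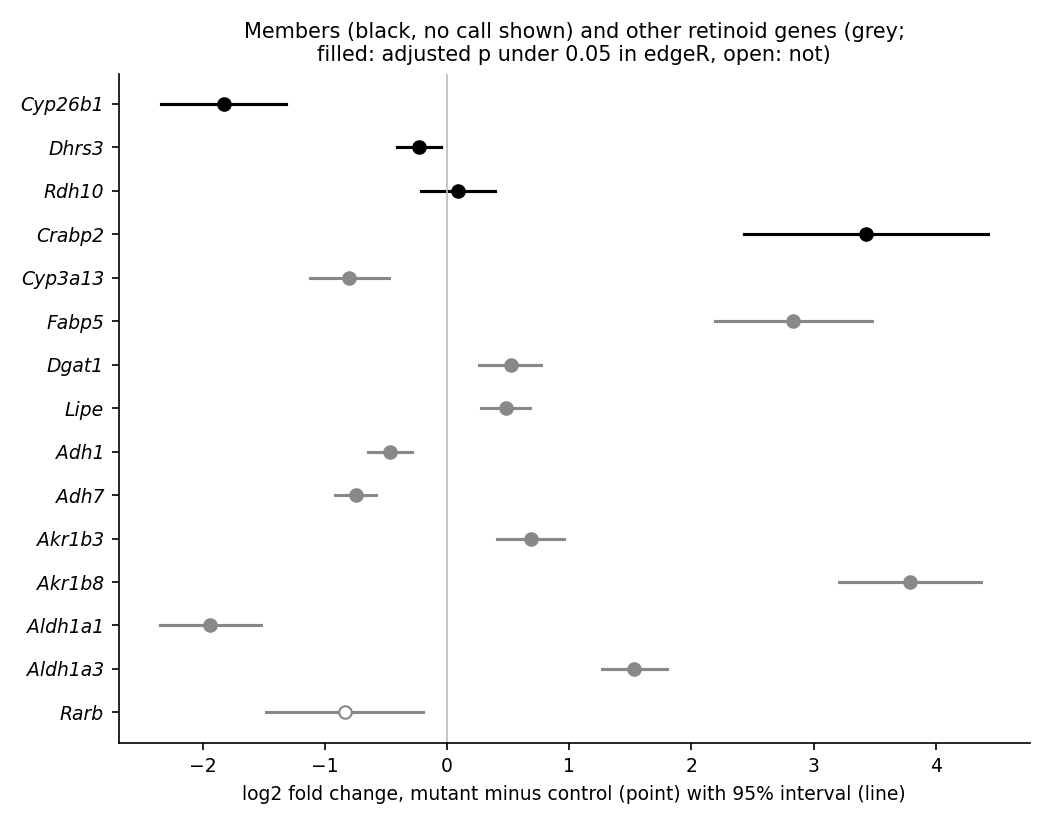
Log2 fold change (horizontal axis, mutant minus control) with its 95% interval for the 4 tested members (black) and 11 other retinoid genes (grey), the grey points filled where the adjusted p was under 0.05 in edgeR. *Cyp26b1* (-1.83) and *Aldh1a1* (-1.94) lie furthest to the left, and *Akr1b8* (3.79), *Crabp2* (3.43) and *Fabp5* (2.83) furthest to the right.

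The remaining genes of the pathway were taken from a list by role, and 52 of its 58 genes have a row, 41 of which passed the filter. At an adjusted p under 0.05, 7 rose and 4 fell, and 30 did not pass, with a median log2 fold change of -0.01 beside -0.003 over all genes tested. The count of 11 of 41 stands beside the 13.2% of all genes tested. Past both thresholds were 5 of the 41, of which 4 were higher, beside 1.37% of all genes. By role, 2 of 5 tested carriers and uptake genes rose, 2 of 5 storage and release genes rose, 2 of 20 interconversion genes rose and 2 fell, 1 of 3 synthesis genes rose and 1 fell, 1 of 3 other clearance genes fell, and none of 5 nuclear receptors passed. The KEGG retinol metabolism genes of the deposited annotation, without the members, gave another balance, with 2 of 32 tested genes higher (*Dgat1* and *Cyp4a10*) and 6 lower and a median of -0.24. Past both thresholds were 2 of them, both lower, *Aldh1a1* and *Cyp2b19* (log2 fold change -1.54), a P450 of keratinocytes that was named after its value was seen. *Rbp5*, *Lrp2*, *Sdr16c5*, *Adh4*, *Ugt2b34* and *Rxrg* were not analysed here.

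*Fabp5*, a fatty acid carrier that can also bind retinoic acid, had 86.7, 79.4 and 98.2 FPKM in controls against 970, 493 and 423 FPKM in mutants (log2 fold change 2.83, standard error 0.29, adjusted p = 2.9e-04 from edgeR). The groups did not overlap, and mutant replicate 1 was the highest; without it the log2 fold change was 2.37. Of the windows of 50 bases in *Fabp5* transcripts, 5.48% are shared with other genes such as *Fabp5l2*, so its level is less certain. *Crabp2* FPKM stayed at 0.00356 to 0.0138 of that of *Fabp5* in all 6 samples, and the ranges of this ratio overlapped between the genotypes.

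Synthesis of retinoic acid is the step that feeds *Cyp26b1*, and its enzymes went in opposite directions. *Aldh1a1* fell from 63.5, 92.7 and 89.0 FPKM in controls to 16.8, 26.5 and 20.8 FPKM in mutants (log2 fold change -1.94, standard error 0.18, adjusted p = 2.1e-04 from edgeR). *Aldh1a3* rose from 68.4, 63.8 and 70.4 FPKM to 220, 159 and 209 FPKM (log2 fold change 1.53, standard error 0.12, adjusted p = 6.6e-05 from edgeR). *Aldh1a2* was at 0 in 5 samples and at 0.02 FPKM in mutant replicate 1. *Aldh1a1* shares 3.06% of its windows with *Aldh1a7*, which had 4.83 to 5.85 FPKM in controls against 3.50 to 4.43 FPKM in mutants.

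Ratios of FPKM, chosen after the values were seen, set clearance beside synthesis. *Cyp26b1* over *Aldh1a1* was 0.735, 0.792 and 0.915 in controls against 0.808, 0.853 and 0.997 in mutants, and these ranges overlapped. *Cyp26b1* over the sum of *Aldh1a1* and *Aldh1a3* was 0.354, 0.469 and 0.511 in controls against 0.0574, 0.122 and 0.0902 in mutants. The second ratio was lower in each mutant sample than in each control sample, which the first was not. Messages, not enzyme activity or retinoic acid, were measured.

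**Figure D3:**
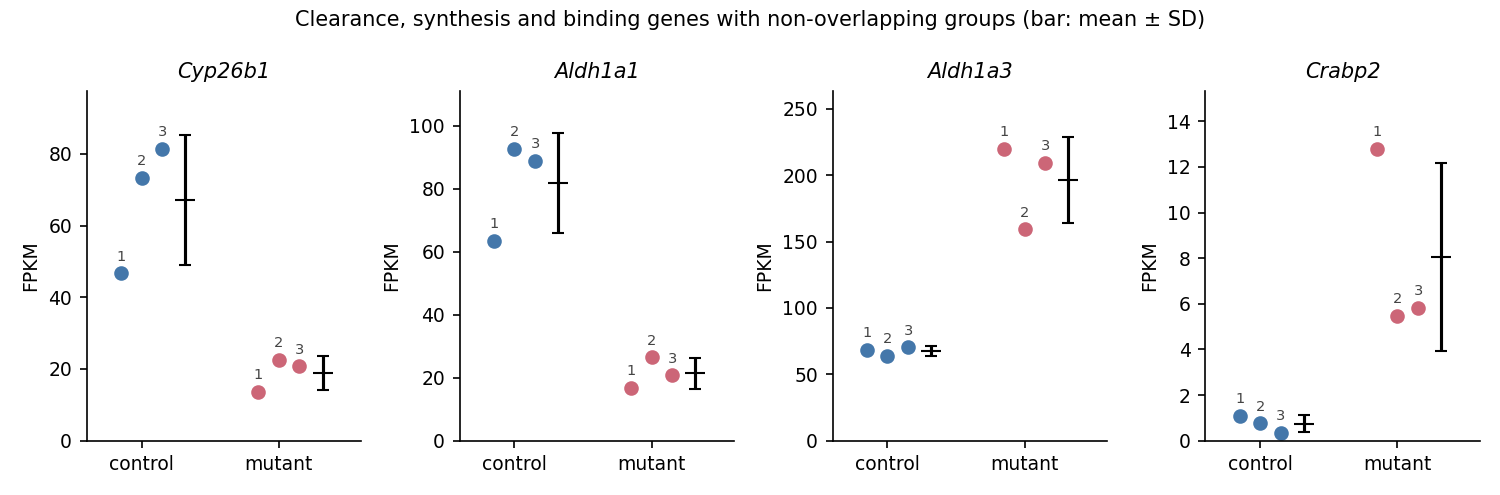
FPKM (vertical axes, each starting at 0) of *Cyp26b1*, *Aldh1a1*, *Aldh1a3* and *Crabp2* in each control (blue) and mutant (red) sample, numbered by replicate, with mean ± SD bars. *Cyp26b1* and *Aldh1a1* are lower in every mutant sample than in every control sample, and *Aldh1a3* and *Crabp2* are higher.

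Among the interconversion genes, *Adh1* and *Adh7*, alcohol dehydrogenases that can oxidize retinol, fell in mutants. *Adh1* went from 936 to 1052 FPKM to 672 to 767 FPKM (log2 fold change -0.47, adjusted p = 0.0044 from edgeR) and *Adh7* from 509 to 520 FPKM to 289 to 335 FPKM (log2 fold change -0.75, adjusted p = 2.7e-04 from edgeR). The aldo-keto reductases *Akr1b3* (log2 fold change 0.69, adjusted p = 0.0060 from edgeR) and *Akr1b8* (log2 fold change 3.79, adjusted p = 3.0e-05 from edgeR) rose, the latter from 2.13 to 5.32 FPKM to 47.9 to 65.6 FPKM. Without mutant replicate 1 these were 0.53 and 3.63. *Akr1b3* shares 13.6% of its windows with other genes. Of the storage and release genes, *Dgat1* (log2 fold change 0.52, adjusted p = 0.016 from edgeR), an acyltransferase that can also esterify retinol, and *Lipe* (log2 fold change 0.48, adjusted p = 0.0077 from edgeR), a hydrolase of stored esters, rose. *Dgat1* was not under 0.05 without control replicate 1 (adjusted p = 0.056 from edgeR) or control replicate 2 (adjusted p = 0.069 from edgeR). *Lipe* shares 15.6% of its exon bases with an overlapping gene, *4732471J01Rik*. *Cyp3a13*, a cytochrome P450 with broad substrates, fell from 40.5 to 44.3 FPKM to 18.5 to 28.8 FPKM (log2 fold change -0.80, adjusted p = 0.0057 from edgeR).

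Of 16 genes that retinoic acid induces in some cells, 12 have a row and 10 passed the filter, of which 2 rose and 2 fell, beside 13.2% called over all genes tested. Their median log2 fold change was -0.22, beside -0.003 over all genes. *Rarres1* was among those that rose and *Ret* among those that fell. *Rarres1* differed by 0.68 on the log2 scale (adjusted p = 0.028 from edgeR) and was not under 0.05 in 5 of the 6 fits that left out a sample, where its adjusted p from edgeR reached 0.090, the exception being mutant replicate 3. *Ret*, a receptor tyrosine kinase, differed by -0.90 on that scale (adjusted p = 0.0070 from edgeR). *Rarb*, a receptor gene that retinoic acid induces in many cells, was low in both groups, at 0.65 to 0.82 FPKM in controls against 0.25 to 0.55 FPKM in mutants, with an adjusted p of 0.086 from edgeR. *Rarb* shares 38.4% of its exon bases with overlapping genes, *Top2b* among them.

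Marker lists of other cell types were read beside these values. The leukocyte list summed to 84.8 to 95.8 FPKM in controls against 275 to 1522 FPKM in mutants, with 1 of its 3 tested genes higher. That gene was *S100a9*, at 2.98 to 6.51 FPKM and 201 to 1401 FPKM, which stressed epithelium also makes. Without mutant replicate 1 the list summed to 275 to 363 FPKM in mutants. The pan-leukocyte gene *Ptprc* was at most 0.15 FPKM in any sample. *Lyz2* of the same list, too low to be tested, had 0, 0 and 1 counts in controls against 23.7, 13 and 3.79 in mutants. Most of the control sum was *Itgam* (63.85 to 67.15 FPKM, against 50.97 to 94.77 in mutants) and *Cd68* (17.31 to 21.84 FPKM, against 22.11 to 24.54). Epidermal markers summed to 9.12 to 12.8 FPKM in controls against 14.1 to 18.1 FPKM in mutants, with 1 of 3 tested genes higher (*Ivl*). The higher sum came from *Ivl*, at 2.96 to 6.42 FPKM in controls against 8.13 to 11.58 FPKM in mutants. The keratins *Krt1* (2.24 to 2.74 against 2.03 to 2.67 FPKM) and *Krt10* (3.27 to 3.97 against 2.93 to 3.44 FPKM) overlapped between the groups. Conjunctival markers summed to 1398 to 1624 FPKM in controls against 1099 to 1219 FPKM in mutants, and 2 of their 7 tested genes fell (*Krt13* and *Krt8*). The adipocyte list summed to 0.1 to 0.34 FPKM in controls against 3.41 to 6.25 FPKM in mutants, mostly from *Fabp4*, while *Adipoq* was at most 0.04 FPKM. *Lep* of that list, too low to be tested, went the other way, with 4, 4 and 6 counts in controls against 0 in each mutant sample. Stromal markers summed to 3.0 to 3.45 FPKM in controls against 2.36 to 6.19 FPKM in mutants, with *Dcn* higher and *Pdgfra* lower of 3 tested genes. Most of the control sum was *Pdgfra*, at 2.07 to 2.50 FPKM in controls against 1.17 to 1.48 FPKM in mutants. *Dcn* was 0.03 to 0.08 FPKM in controls against 0.39 to 1.80 FPKM in mutants. Too low to be tested were *Vim* (0 to 2 counts against 9 to 19), *Col1a1* (1 to 2 against 6 to 23) and *Col3a1* (0 to 1 against 6 to 32). The groups overlapped for *Col1a2*, *Lum*, *Ptgds* and *Thy1*, and the keratocyte gene *Kera* was at most 0.07 FPKM. Vessel markers were at most 0.26 FPKM. The part of these cells in the levels of *Cyp26b1* and *Crabp2* was not tested.

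Over the 6 samples, the genes whose TMM-scaled log2 CPM followed *Cyp26b1* most closely were *Etfa* (Pearson's r = 0.998), *Itpkb* (r = 0.997) and *Smim14* (r = 0.997). For *Crabp2* they were *Efemp2* (r = 0.998), *Bnc1* (r = 0.997) and *Car13* (r = 0.997). The points share the difference between genotypes, and the closest of 12667 genes were picked, so these values are a description. The likeness is in shape rather than size, since *Etfa* differed by -0.11 and *Itpkb* by -1.07 on the log2 scale beside the -1.83 of *Cyp26b1*.

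**Figure D4:**
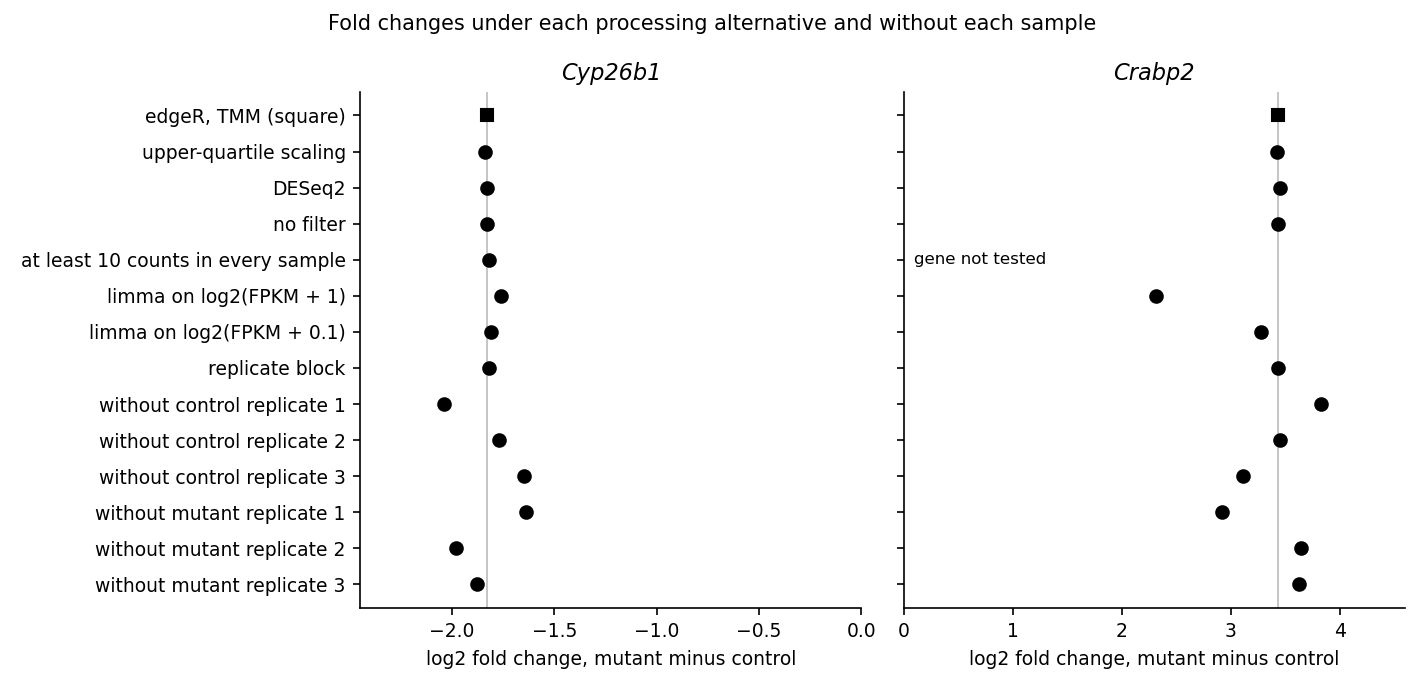
Log2 fold change (horizontal axes, mutant minus control, with 0 at the edge) of *Cyp26b1* and *Crabp2* under each processing alternative and with each sample left out. *Cyp26b1* ranges from -2.04 to -1.64 and *Crabp2* from 2.31 to 3.83, and the sign is that of the edgeR fit with TMM scaling (square) throughout.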

How the data were processed

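Corneal epithelial RNA of 3 control and 3 mutant samples was measured. By the study's methods, rRNA was removed and 50-base single-end reads were sequenced. The authors aligned these reads with Bowtie2 2.2.5. They deposited expected counts per gene made with RSEM 1.2.12, which divide reads among genes that share them. The authors also deposited FPKM, scaled by transcript length and sample total. The submitters' processing notes name mm9, whereas the chromosome identifiers in the deposited table are those of GRCm38, which is used here. Deposited means over samples and DEGseq comparison columns (fold changes, p-values and calls) were not used.

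Expected counts were rounded and tested with edgeR 4.0.16 in R 4.3.3 (TMM, filterByExpr with a minimum count of 10 and total of 15, quasi-likelihood test of genotype, Benjamini-Hochberg over 12667 genes). Levels are FPKM as deposited. Alternatives were DESeq2 1.42.0, upper-quartile scaling, other filters, limma 3.58.1 on log2(FPKM + 1) and log2(FPKM + 0.1), a replicate block, and each sample left out. On simulated data of this comparison, 200 genes were changed by the same known fold, some up and some down. There edgeR tested 12568 genes and called 97% of the changed ones, with 0 false calls. Other sizes of fold were not simulated, and each gene was drawn with the spread typical of its level, without an excess of its own. That result therefore does not show how reliable a call is for genes as variable as *Cyp26b1* and *Crabp2*. Their coefficients of variation were 27.1% and 51.0% in controls, against a median of 8.06%. In the real data, 36 to 193 genes passed the stricter call with a sample left out. Shared windows and exon overlaps were counted in GENCODE M21. Members, gene lists and the rule for named genes (all members, listed genes with an adjusted p under 0.05, *Aldh1a1*, *Aldh1a2*, *Aldh1a3*, *Fabp5* and *Rarb* whatever their value, and the 3 genes most like a member) were chosen with earlier results of these data known. Values of some genes under this rule are not reported here. Marker genes beyond that rule, *Krt12* among them, were named after their values were seen. The study states 3 independent biological samples per genotype. Limits of detection cover counting error only, since PCR copies are not independent molecules.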

Additional observations from a re-analysis of the deposited data

How the results depend on the processing

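The number of members past both thresholds (1, *Cyp26b1*) was 2 with DESeq2 and 2 without a filter, with *Crabp2* added, and 0 with limma on either FPKM scale; with a sample left out it ranged from 0 to 2. Members at an adjusted p under 0.05 (2) fell to 1 with at least 10 counts in every sample, where *Crabp2* was not tested. All genes past the thresholds (173) were 330 with DESeq2, 114 with limma on log2(FPKM + 1) and 36 to 193 with a sample left out. Other retinoid genes under 0.05 (11) were 10 to 12 with a sample left out and 11 elsewhere. The log2 fold change of *Rdh10* ranged from -0.02 to 0.18 with a sample left out and changed sign without control replicate 1 (-0.01) and without mutant replicate 1 (-0.02).

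With the replicate block, 2 members were past both thresholds, *Cyp26b1* (-1.82) and *Crabp2*, and 176 genes in all. Same-numbered samples are different mice, and their deviations from the group means correlated at 0.02, 0.05 and -0.05. These values show no pairing by number, and whether such samples shared a day or batch was not tested. At 3 samples per genotype and 3 counts as the floor, *Cyp26a1*, *Crabp1*, *Stra6* and *Lrat* cannot be compared.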
